A study of Mus musculus with 12 samples.

Results

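Genes of the signal recognition particle (SRP), of its receptor and of the signal peptidase complex were examined in mouse liver. The 10 genes were chosen by name, with earlier results of these data known, so their counts beside those of all genes are descriptive. Every probe set that the platform's annotation assigned to one of these symbols was taken. This gave 21 of the 45101 probe sets and 10 of the 14568 genes tested. Srp9, Srp14, Srp19, Srp68 and Srp72 encode proteins of the cytosolic particle and had 10 probe sets. Srprb, Spcs1, Spcs2, Spcs3 and Sec11a encode proteins of the endoplasmic reticulum (ER) membrane and had 11. The arrays came from livers of Ire1α null mice, titled Fe-CRE+, and of control mice, titled Fe+CRE+, and each genotype was studied with and without ER stress. There were 4 groups of 3 biological replicates: null livers with tunicamycin, null livers with vehicle, control livers with tunicamycin and control livers with vehicle. All mice were on the C57Bl/6J background and 3 months old. They were injected intraperitoneally with 2 µg of tunicamycin per g of body weight or with dextrose, and the liver was removed 8 hours later. Both genotypes carry CRE+ in their titles. The sources used here do not give the promoter that drives Cre or the deleted part of the Ire1α gene.

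SRP binds the signal sequence of a secretory or membrane protein as it leaves the ribosome, slows translation and brings the ribosome to the SRP receptor on the ER membrane. The chain then enters the Sec61 channel, and signal peptidase cuts off its signal peptide in the ER lumen. Hepatocytes secrete most plasma proteins through this route. Tunicamycin blocks N-linked glycosylation, so unfolded protein collects in the ER, and Ire1α, a sensor in the ER membrane, then splices the Xbp1 transcript, whose product is a transcription factor for many ER genes.

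Ern1, which encodes Ire1α, was read by 5 probe sets. The brightest had deposited intensities of 4793, 2147 and 3894 in null tunicamycin livers, 1489, 1142 and 1083 in null vehicle livers, 3697, 2950 and 3513 in control tunicamycin livers, and 1846, 1344 and 1119 in control vehicle livers. The genotypes overlapped under both treatments. With the deleted part not given, these probe sets do not check the genotype labels. The trimmed mean intensity of the 12 arrays lay between 227 and 302. Summed intensities of 9 measured hepatocyte markers were 104054 to 108297, 98872 to 100557, 103991 to 112155 and 94634 to 102113 in the same order of groups. Of the 9, 8 read between 6338 and 16626 on the 12 arrays, and Ass1, a urea cycle enzyme of hepatocytes, read 91.9 to 283. Null tunicamycin replicate 2 also carried kidney transcripts. On it, 13 of 16 measured kidney markers (18 listed) lay more than 1 (log2) above every other array, and their summed intensity was 30899, against 437 to 772 on the other 11 arrays. The counts of members called, the class means and the shares of the response are also given without it. The ratio of 5' to 3' actin probe sets was 0.205 to 0.434 in null tunicamycin, 0.296 to 0.633 in null vehicle, 0.295 to 0.389 in control tunicamycin and 0.454 to 1.10 in control vehicle arrays. The Gapdh ratio was 0.370 to 0.435, 0.181 to 0.642, 0.523 to 0.577 and 0.352 to 0.774 in that order. The part of RNA quality in the results was not tested beyond fits with each ratio as a covariate.

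In control livers 8 of the 10 genes rose with tunicamycin, 4 of 5 cytosolic and 4 of 5 ER membrane members. Among all genes tested 11.6% rose. Srprb, the membrane anchor of the SRP receptor, rose 6.95-fold and Sec11a, a catalytic subunit of signal peptidase, 3.22-fold, while the other 6 rose 1.88- to 2.64-fold. Srp14 and Spcs1 did not pass the test. Here and below a change is a log2 fold change ± the standard error of a limma fit over the 12 arrays, and a gene is said to rise or fall at a Benjamini-Hochberg adjusted p under 0.05 over all 14568 genes. The median change of the 10 genes was 1.17, against -0.11 for all genes tested. Tunicamycin arrays lay above vehicle arrays without overlap for 9 of the 10 genes, all but Spcs1, and for 18.0% of all genes.

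In null livers 4 of the 10 genes rose with tunicamycin, 1 of 5 cytosolic (Srp72) and 3 of 5 ER membrane members (Srprb, Spcs2 and Sec11a), against 7.59% of all genes. Their rises were 1.33-fold for Srp72, 1.92-fold for Srprb, 1.57-fold for Spcs2 and 2.35-fold for Sec11a. The median change of the 10 genes was 0.36, against -0.07 for all genes. Groups did not overlap, tunicamycin above vehicle, for 7 of the 10 genes and for 13.6% of all genes. Without null tunicamycin replicate 2, the array with kidney transcripts, Spcs2 (0.55, adjusted p = 0.0294) and Sec11a (1.21, adjusted p = 0.000129) were the 2 genes that rose. When probe sets were averaged per gene in place of taking the brightest, Sec11a alone rose, and with array medians centred or values as deposited Srp19 and Srp68 rose as well, 6 genes in all. Of all genes, these fits called 2186, 2257, 1959 and 1989 in either direction, in that order, against 2449 in the main fit.

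With tunicamycin 8 of the 10 genes were lower in null than in control livers, again 4 of 5 in each class, against 3.23% of all genes. The median difference was -1.04, against 0.02 for all genes. Every null array lay below every control array for all 10 genes, as for 11.5% of all genes. For 8 of the 10, all but Srp14 and Spcs1, the 3 control tunicamycin arrays stood above the other 9 arrays of the study, as they did for 6.38% of all genes. This comparison shares its control tunicamycin arrays with that of tunicamycin against vehicle in control livers, so the 2 sets of calls are not independent. Without null tunicamycin replicate 2 the same number, 8 of the 10, were lower. That fit called 527 of all genes in either direction, against 581 with the array. In bulk tissue, less RNA per cell and fewer cells of a type cannot be told apart. Summed intensities of the 9 Kupffer cell and macrophage markers were 4802, 5113 and 10028 in null tunicamycin livers, 5693 to 9721 in null vehicle livers, 8000 to 10806 in control tunicamycin livers and 7708 to 13194 in control vehicle livers. On 2 null tunicamycin arrays the sum lay below that of every other array, and none of the 9 markers was at 0 on any array (53.1 for Cd68 was the lowest reading). The median change of these markers with tunicamycin was -0.50 in null and -0.47 in control livers, and with tunicamycin it was -0.64 in null against control livers. Of the 9, Adgre1, a macrophage surface receptor, fell with tunicamycin in both genotypes, and 0 of 9 passed between null and control livers in limma, with 2 of 9 lower with tunicamycin at an unadjusted p under 0.05. The part of these cells in the members' values was not tested. Of the other cell types listed, 0 of 6 endothelial, 0 of 6 stellate and fibroblast and 0 of 4 measured lymphocyte markers passed in any of the 5 comparisons, and at an unadjusted p under 0.05 a single marker passed in 3 of these list comparisons.

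**Figure D1:**
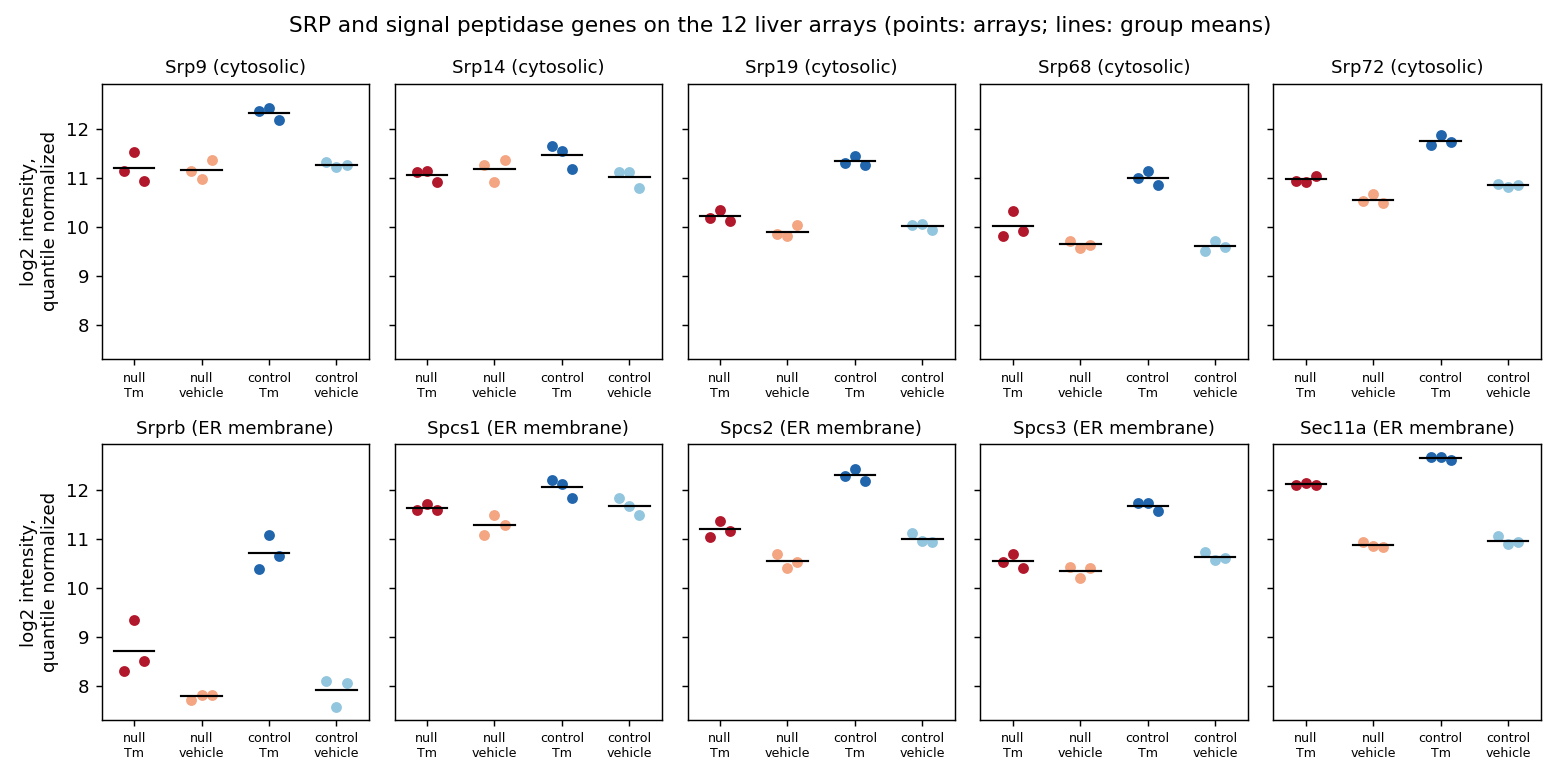
The panels show 1 gene each, with the 12 arrays as points, quantile normalized log2 intensity on the y axis, the 4 groups on the x axis and group means as lines. In 8 panels the 3 control tunicamycin points lie above the other 9; Srp14 and Spcs1 are the exceptions, and for Sec11a the null tunicamycin points also stand well above both vehicle groups.

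Among the cytosolic members, Srp9 and Srp14 form the pair that binds the Alu domain of the SRP RNA, where the particle slows translation. Srp9 had deposited intensities of 2540, 2750 and 2226 in null tunicamycin livers, 1941, 1932 and 2311 in null vehicle livers, 5744, 5940 and 5034 in control tunicamycin livers, and 2444, 2265 and 2238 in control vehicle livers. The control tunicamycin arrays were high and the other 3 groups lay close together. Srp9 rose by 1.05 ± 0.17 in control livers (adjusted p = 0.000631), while its change in null livers was 0.04 ± 0.17 (adjusted p = 0.892), a log2 change equal to 4.16% of that in control livers. With tunicamycin it was lower in null livers, with a log2 fold change of -1.12 ± 0.17 (adjusted p = 0.00236). Without null tunicamycin replicate 2 its change in null livers was -0.12.

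Srp14 had intensities of 2483, 2111 and 2180 in null tunicamycin livers, 2105, 1846 and 2319 in null vehicle livers, 3547, 3307 and 2512 in control tunicamycin livers, and 2159, 2102 and 1579 in control vehicle livers. In deposited intensity its control tunicamycin arrays were the highest, replicate 3 only narrowly so, and after quantile normalization replicate 3 lay below null vehicle replicates 1 and 3. Its change was 0.44 ± 0.18 in control livers (adjusted p = 0.0877) and -0.12 ± 0.18 in null livers (adjusted p = 0.700). Without control tunicamycin replicate 3 the control change was 0.59 (adjusted p = 0.0433). With array medians centred, values as deposited, or the mean of its probe sets, Srp14 also passed in control livers.

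Srp19 binds the SRP RNA and prepares it for the signal-binding subunit Srp54. Its intensities were 1324, 1150 and 1305 in null tunicamycin livers, 777, 860 and 913 in null vehicle livers, 2828, 3073 and 2671 in control tunicamycin livers, and 1050, 966 and 847 in control vehicle livers. Null tunicamycin arrays exceeded both vehicle groups and stayed below the control tunicamycin arrays. Srp19 rose by 1.33 ± 0.13 in control livers (adjusted p = 1.75e-05). In null livers it changed by 0.31 ± 0.13 without passing (adjusted p = 0.117), and with tunicamycin it was lower in null than in control livers (-1.12 ± 0.13, adjusted p = 0.000556).

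Srp68 and Srp72 bind the RNA as a pair and hold the particle together. Srp68 read 1029, 1138 and 1129 in null tunicamycin livers, 707, 725 and 700 in null vehicle livers, 2274, 2454 and 2032 in control tunicamycin livers, and 723, 761 and 665 in control vehicle livers. Its vehicle groups lay together, the null tunicamycin arrays above them and the control tunicamycin arrays highest. It rose by 1.40 ± 0.16 in control livers (adjusted p = 5.42e-05), against 0.38 ± 0.16 in null livers (adjusted p = 0.124), or 0.22 without null tunicamycin replicate 2 (adjusted p = 0.345). The difference with tunicamycin, null against control, was -0.98 ± 0.16 (adjusted p = 0.00345).

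Srp72 read 2197, 1758 and 2399 in null tunicamycin livers, 1242, 1540 and 1251 in null vehicle livers, 3637, 4045 and 3735 in control tunicamycin livers, and 1848, 1682 and 1680 in control vehicle livers. It was the cytosolic member that rose in both genotypes, by 0.41 ± 0.12 in null livers (adjusted p = 0.0351) and by 0.91 ± 0.12 in control livers (adjusted p = 0.000175). The call in null livers ended without any of 6 arrays (control tunicamycin replicate 3, null vehicle replicates 1 and 3, and each null tunicamycin replicate), with changes of 0.37 to 0.43 and adjusted p of 0.0514 to 0.111. With tunicamycin Srp72 was lower in null livers (-0.79 ± 0.12, adjusted p = 0.00253).

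Of the ER membrane members, Srprb encodes the β subunit of the SRP receptor, a membrane GTPase that holds the α subunit at the ER. Its intensities were 350, 559 and 416 in null tunicamycin livers, 171, 210 and 184 in null vehicle livers, 1513, 2361 and 1745 in control tunicamycin livers, and 265, 160 and 212 in control vehicle livers. The vehicle groups overlapped, the null tunicamycin arrays lay above them, and the control tunicamycin arrays were far above all others. Srprb rose by 0.94 ± 0.26 in null livers (adjusted p = 0.0304) and by 2.80 ± 0.26 in control livers (adjusted p = 1.61e-05). Replicate 2 was the highest of the null tunicamycin arrays, and without it the rise in null livers was 0.63 (adjusted p = 0.0767). That call also ended without null vehicle replicate 1, 2 or 3, so that the 4 values ran between 0.63 and 0.96 (adjusted p = 0.0624 to 0.0897). With tunicamycin Srprb was 3.95-fold lower in null than in control livers (-1.98 ± 0.26, adjusted p = 0.00126).

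Sec11a is a catalytic subunit of signal peptidase. It had intensities of 4622, 4268 and 4834 in null tunicamycin livers, 1672, 1767 and 1608 in null vehicle livers, 6902, 7076 and 6696 in control tunicamycin livers, and 2049, 1782 and 1762 in control vehicle livers. The null tunicamycin arrays lay between the control tunicamycin arrays and both vehicle groups, which overlapped. It rose by 1.23 ± 0.11 in null livers (adjusted p = 3.04e-05) and by 1.69 ± 0.11 in control livers (adjusted p = 1.38e-06), so the log2 rise in null livers was 73.0% of that in control livers. The difference with tunicamycin, null against control, was -0.54 ± 0.11 (adjusted p = 0.0184). It no longer passed without any of 5 arrays, each control tunicamycin replicate and null tunicamycin replicates 1 and 3, although its value stayed between -0.56 and -0.53 (adjusted p = 0.0523 to 0.0899).

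Spcs2 encodes an accessory subunit of the complex that contacts the translocon. Its arrays read 2346, 2489 and 2587 in null tunicamycin livers, 1415, 1302 and 1294 in null vehicle livers, 5450, 5948 and 4972 in control tunicamycin livers, and 2144, 1868 and 1754 in control vehicle livers. Null arrays lay below control arrays under both treatments, and tunicamycin arrays above vehicle arrays in both genotypes. Spcs2 rose by 0.65 ± 0.14 in null livers (adjusted p = 0.00857) and by 1.29 ± 0.14 in control livers (adjusted p = 4.83e-05). With tunicamycin the null livers were lower (-1.10 ± 0.14, adjusted p = 0.000946).

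Spcs3, a subunit that signal peptidase needs for activity, read 1676, 1467 and 1565 in null tunicamycin livers, 1157, 1105 and 1187 in null vehicle livers, 3751, 3707 and 3305 in control tunicamycin livers, and 1641, 1398 and 1374 in control vehicle livers. The null tunicamycin intensities reached only those of control vehicle livers. Spcs3 rose by 1.04 ± 0.13 in control livers (adjusted p = 0.000131), against 0.20 ± 0.13 in null livers (adjusted p = 0.335), or 0.13 without null tunicamycin replicate 2. With tunicamycin it was lower in null livers (-1.13 ± 0.13, adjusted p = 0.000614).

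Spcs1, a small accessory subunit, read 3333, 3114 and 3401 in null tunicamycin livers, 1856, 2742 and 2195 in null vehicle livers, 5088, 4812 and 3993 in control tunicamycin livers, and 3539, 3035 and 2635 in control vehicle livers. Its control tunicamycin arrays were highest in deposited intensity, and after quantile normalization they overlapped with the control vehicle arrays. Its changes were 0.34 ± 0.15 in null livers (adjusted p = 0.169) and 0.39 ± 0.15 in control livers (adjusted p = 0.0910), and the control value passed with array medians centred, values as deposited, the mean of its probe sets or a trended, robust variance.

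**Figure D2:**
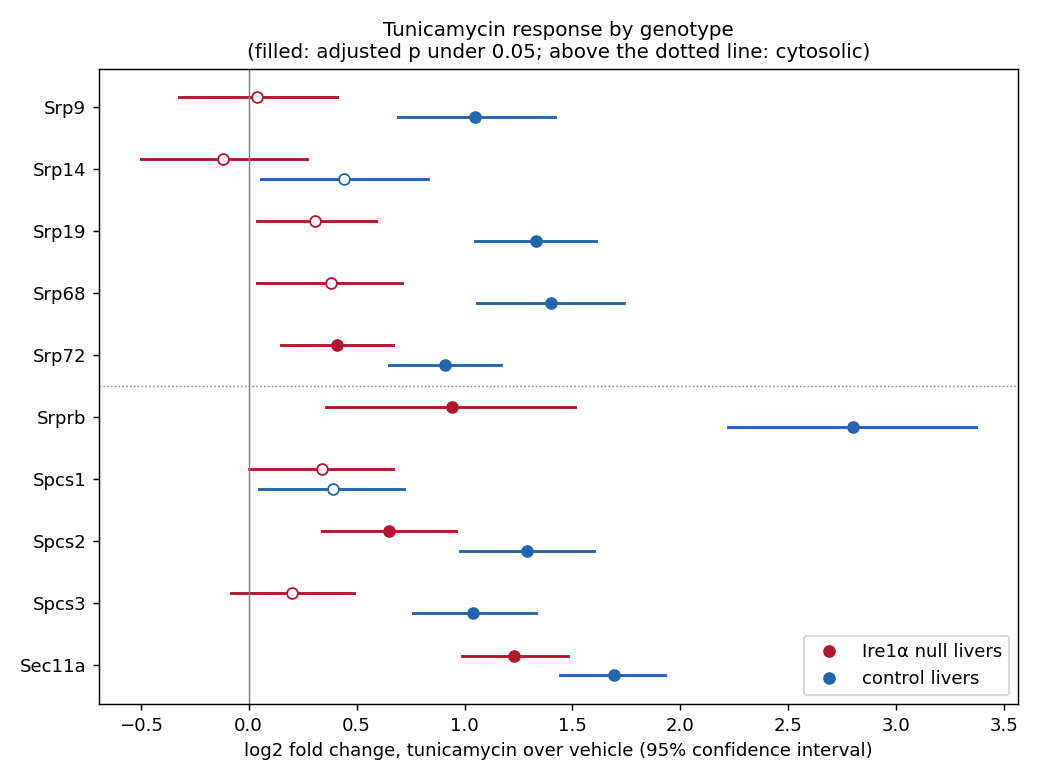
Log2 fold changes of the 10 genes, tunicamycin over vehicle, are plotted on the x axis for null and control livers with 95% confidence intervals, filled where the adjusted p is under 0.05, and cytosolic members stand above the dotted line. The null value lies left of the control value for all 10 genes, by the widest margin for Srprb and by the narrowest for Spcs1.

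The difference between the responses of the 2 genotypes was tested as an interaction. Srp19 (-1.01 ± 0.18, adjusted p = 0.0257) and Srprb (-1.86 ± 0.37, adjusted p = 0.0434) had a smaller response in null livers, 2 of the 10 genes against 0.824% of all genes. For the other 8 the difference did not pass, with values of -1.01 for Srp9 (adjusted p = 0.0845), -1.02 for Srp68 (adjusted p = 0.0590), -0.84 for Spcs3 (adjusted p = 0.0670) and -0.64 to -0.05 for Spcs2, Srp14, Srp72, Sec11a and Spcs1. At an unadjusted p under 0.05, 9 of the 10 genes, all but Spcs1, had a smaller response in null livers, against 5.44% of all genes. Both calls depended on the arrays in the fit. Srprb passed without null tunicamycin replicate 2 (-2.17, adjusted p = 0.00709) and ended without any of the other 11 arrays (-2.03 to -1.66, adjusted p = 0.0693 to 0.143). Srp19 passed without control tunicamycin replicate 3, null vehicle replicate 2 or null tunicamycin replicate 2 and ended without any of the other 9 (-1.04 to -0.95, adjusted p = 0.0542 to 0.107). Without null tunicamycin replicate 2, Srp9 (-1.17, adjusted p = 0.0266) and Srp68 (-1.17, adjusted p = 0.0167) passed as well, 4 genes in all. That fit called 126 of all genes in either direction, against 122 with the array. With values as deposited Srp68 passed and Srp19 did not (adjusted p = 0.0557).

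With vehicle 0 of the 10 genes differed between null and control livers in the limma fit, as did 0% of all genes. Their differences ran between -0.46 for Spcs2 and 0.16 for Srp14. At an unadjusted p under 0.05, 4 of the 10 were lower in null livers (Srp72 -0.29, Spcs1 -0.38, Spcs2 -0.46 and Spcs3 -0.29), against 2.44% of all genes. Null vehicle arrays lay below control vehicle arrays without overlap for Srp72, Spcs2 and Spcs3, 3 of the 10 genes against 4.41% of all genes. Sec11a (-0.09 ± 0.11) and Srprb (-0.13 ± 0.26) overlapped between genotypes.

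To set cytosolic against ER membrane members, each gene was expressed as its log2 difference from its control vehicle mean and averaged over the 5 genes of a class on each array. Members are not replicates, so no test was made. The cytosolic mean was 0.09, 0.30 and 0.04 on null tunicamycin arrays, -0.05, -0.16 and 0.03 on null vehicle arrays, 1.05, 1.14 and 0.89 on control tunicamycin arrays, and 0.02, 0.04 and -0.06 on control vehicle arrays. The ER membrane mean was 0.28, 0.62 and 0.32, then -0.26, -0.28 and -0.26, then 1.42, 1.57 and 1.34, and then 0.14, -0.10 and -0.03 on the arrays in that order. Null tunicamycin replicate 2, with its kidney transcripts, was the highest of its group in both classes.

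The mean response to tunicamycin was 0.21 for the cytosolic and 0.67 for the ER membrane class in null livers, and 1.03 and 1.44 in control livers. Without null tunicamycin replicate 2 the null means were 0.12 for the cytosolic and 0.56 for the ER membrane class. In control livers the gap between the classes rested on Srprb. In null livers a part of the gap stayed without Srprb and Sec11a. Without Srprb the ER membrane mean was 0.60 in null livers (0.55 without replicate 2) and 1.10 in control livers. Without Sec11a as well, the 3 genes left, Spcs1, Spcs2 and Spcs3, had a mean response of 0.40 in null livers (0.33 without replicate 2) and 0.91 in control livers. The cytosolic mean minus the ER membrane mean lay between -0.31 and -0.19 on null tunicamycin arrays, 0.12 and 0.29 on null vehicle arrays, -0.44 and -0.37 on control tunicamycin arrays, and -0.11 and 0.14 on control vehicle arrays. Without Srprb these ranges were -0.21 to -0.11, 0.17 to 0.33, -0.10 to -0.03 and -0.10 to 0.08. Once Srprb was left out, the classes lay within 0.10 of each other on all 6 control arrays. In null livers the ER membrane mean without Srprb was below the cytosolic mean on all 3 vehicle arrays and above it on all 3 tunicamycin arrays. Single members did not keep to this order. Relative to control vehicle livers, Sec11a (1.15) and Srprb (0.81) were high in null tunicamycin livers, while Spcs2 (0.19), Spcs1 (-0.04) and Spcs3 (-0.08) lay below cytosolic Srp68 (0.42) and Srp19 (0.21). The mean of Spcs1, Spcs2 and Spcs3 was -0.05, 0.16 and -0.05 on the null tunicamycin arrays, below the cytosolic mean on each. In null vehicle livers Sec11a (-0.09) and Srprb (-0.13) lay above cytosolic Srp72 (-0.29). The mean difference between the responses of the genotypes was -0.82 for cytosolic members, -0.77 for ER membrane members and -0.50 for ER membrane members without Srprb (-0.90, -0.87 and -0.55 without null tunicamycin replicate 2).

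**Figure D3:**
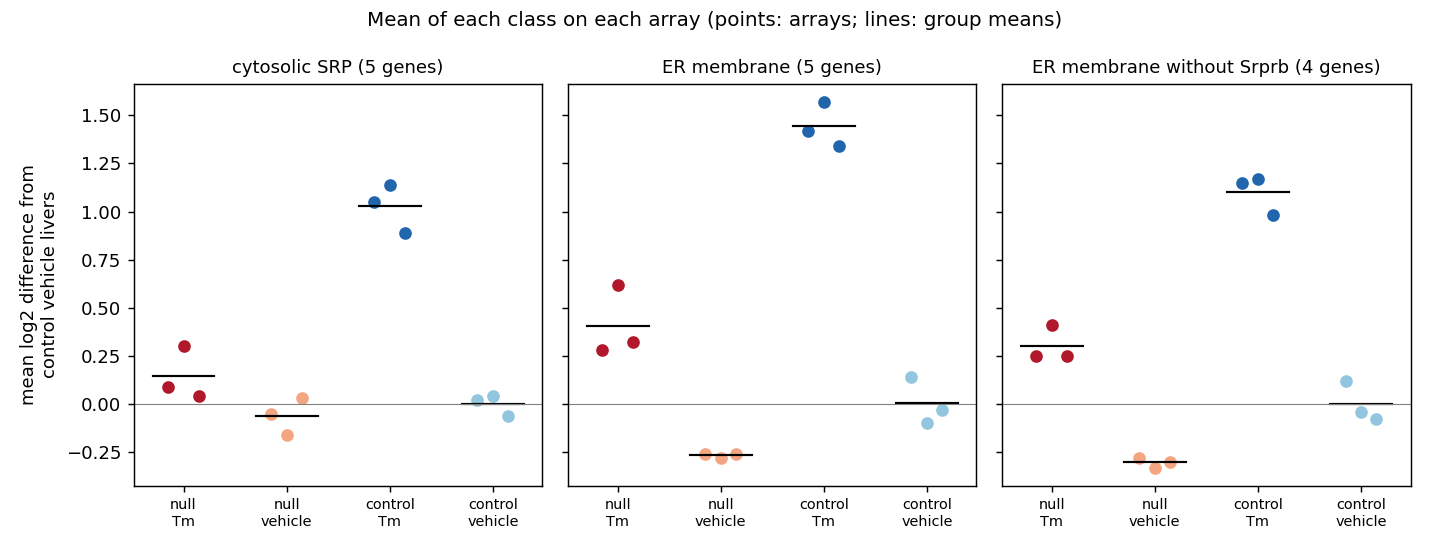
The y axis gives the mean log2 difference from control vehicle livers over 5 cytosolic genes, 5 ER membrane genes, or 4 ER membrane genes without Srprb, with arrays as points, group means as lines and the 4 groups on the x axis. The cytosolic mean of null tunicamycin livers stays between 0.04 and 0.30, the ER membrane mean reaches 0.28 to 0.62, and in control tunicamycin livers the classes draw level once Srprb is left out.

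Within the classes, the log2 rise in null livers as a share of that in control livers, for the 8 genes that rose in control livers, was 73.0% for Sec11a, 50.2% for Spcs2, 45.2% for Srp72, 33.6% for Srprb, 26.9% for Srp68, 23.7% for Srp19, 19.4% for Spcs3 and 4.16% for Srp9. Without null tunicamycin replicate 2 these shares were 72.0% for Sec11a, 43.0% for Spcs2, 47.9% for Srp72, 22.5% for Srprb, 15.8% for Srp68, 19.1% for Srp19, 12.8% for Spcs3 and -11.2% for Srp9. The order below Sec11a thus changed with that array. Sec11a was the highest and Srp9 the lowest either way, and differences between the shares were not tested.

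Promoter sequences were compared for the members matched by symbol in RefSeq (GRCm38.p6), 7 of the 10. Srp19, Srp68 and Spcs3 were not matched. Windows of 300 bases, 250 before and 50 after the start, were searched on both strands for CCACG, the 3' part of the ER stress response element, for the longer GCCACGT that contains it and is read by Xbp1, for the whole elements ERSE (CCAAT and CCACG with 9 bases between) and ERSE-II (ATTGG and CCACG with 1 base between), and for the cores TGACGTGG and TGACGT of the unfolded protein response and cAMP response elements, the longer of which contains the shorter. The 250 bases before the start are shown for Srprb, with the largest log2 rise of the members, for Spcs1, with the smallest change in control livers, and for Sec11a, with the largest rise in null livers. They lie on the minus strand at chr9:103202066-103202315, chr14:31001667-31001916 and chr7:80947551-80947800, and capitals mark CCACG on either strand.
Srprb: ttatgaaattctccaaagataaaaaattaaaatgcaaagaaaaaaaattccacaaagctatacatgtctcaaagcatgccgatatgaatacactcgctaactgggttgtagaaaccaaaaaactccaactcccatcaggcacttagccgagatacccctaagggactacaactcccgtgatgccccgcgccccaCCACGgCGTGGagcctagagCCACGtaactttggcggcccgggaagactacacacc
Spcs1: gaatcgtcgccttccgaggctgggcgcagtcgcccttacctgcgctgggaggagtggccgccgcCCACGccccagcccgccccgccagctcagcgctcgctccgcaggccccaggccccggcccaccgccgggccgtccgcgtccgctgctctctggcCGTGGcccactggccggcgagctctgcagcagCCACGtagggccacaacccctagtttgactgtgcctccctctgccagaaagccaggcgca
Sec11a: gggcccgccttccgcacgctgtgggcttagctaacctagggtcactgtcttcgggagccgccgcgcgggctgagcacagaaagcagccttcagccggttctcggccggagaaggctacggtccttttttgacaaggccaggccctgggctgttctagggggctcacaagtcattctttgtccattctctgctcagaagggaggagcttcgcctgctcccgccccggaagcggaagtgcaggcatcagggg

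Srprb held CCACG at -56, -50 and -36 from the start, the middle one on the opposite strand, and the last lies within GCCACGT. Spcs1 held it at -186, -92 (opposite strand) and -60 before the start, with GCCACGT around the last, and once more 7 bases past the first base of the gene. The Sec11a window held CCACG only 7 bases past the first base. Srp9 had it at -168 and Spcs2 at -246, and the Spcs2 window lay inside the annotated gene. CCACG was thus present in 5 of the 7 windows, against 32.8% of all 32851 windows, and GCCACGT in 2, against 2.58%. Bases G and C made up 50% (Srprb) to 74.7% (Spcs1) of the 7 windows. The windows set beside them were not matched for this share. None of the 7 held the whole elements (0.119% and 0.0365% of all windows), TGACGTGG (0.676%) or TGACGT (7.51%). Of the pair with GCCACGT, Srprb changed by 2.80 and Spcs1 by 0.39 with tunicamycin in control livers, each on its brightest probe set. With probe sets averaged, Spcs1 rose by 0.59 (adjusted p = 0.00611 in limma). Whether the letters bear on these changes was not tested. A match describes these letters in these windows, and a window without one says only that the letters are not there.

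Single probe sets were tested in a fit of all 34945 probe sets with 1 gene symbol and no filter. In control livers 17 of the members' 21 probe sets rose with tunicamycin, against 7.67% of all probe sets, and in null livers 3 did (the brightest of Srprb, Spcs2 and Sec11a), against 4.23%. Srp72, which passed in null livers in the fit of genes, did not pass in this one. With tunicamycin 14 were lower in null than in control livers, against 2.01%. With vehicle 0 differed, and 0% of all probe sets were lower in null livers. The interaction passed for 2, against 0.366%, and these were 1450891_at of Srp19 (-1.01, adjusted p = 0.0456) and 1421012_at of Srprb (-1.60, adjusted p = 0.0396). For the brightest Srprb probe set it gave -1.86 (adjusted p = 0.0692) in this fit.

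All 3 Srprb probe sets rose in control livers, by 2.00, 2.80 and 1.69, and changed by 0.40, 0.94 and 0.22 in null livers, where only the brightest passed. Its dimmer 1421012_at read 175, 136 and 153 in null tunicamycin livers, 75.6, 130 and 91.2 in null vehicle livers, 605, 518 and 484 in control tunicamycin livers, and 157, 91.7 and 79.0 in control vehicle livers. In deposited intensity null tunicamycin replicate 2 was the lowest of its group on this probe set and the highest on the brightest. After quantile normalization it read 7.34 (log2) on 1421012_at, between 7.40 for replicate 1 and 7.16 for replicate 3.

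All probe sets of Srp14 and Spcs1 had positive changes in control livers, but only some of them passed. Differences between probe sets were not tested. For Srp14, the 3 other probe sets rose by 0.74, 0.83 and 0.51 in control livers, while the brightest, 1455939_x_at, changed by 0.44 without passing. Its partner Srp9 rose on both of its probe sets, by 0.61 and 1.05. For Spcs1, the dim 1427500_at read 73.2, 54.1 and 64.5 in null tunicamycin livers, 73.3, 54.5 and 52.7 in null vehicle livers, 140, 133 and 124 in control tunicamycin livers, and 52.5, 63.7 and 66.2 in control vehicle livers. Only the control tunicamycin arrays stood out on it: it rose by 0.85 ± 0.16 in control livers (adjusted p = 0.00370) and changed by -0.06 in null livers. The 2 brighter Spcs1 probe sets changed by 0.39 and 0.55 in control and by 0.34 and 0.31 in null livers without passing. The second Sec11a probe set was dim, with intensities between 5.01 and 14.0 on all arrays, and was the 1 probe set of the 21 below the filter on dim probe sets.

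**Figure D4:**
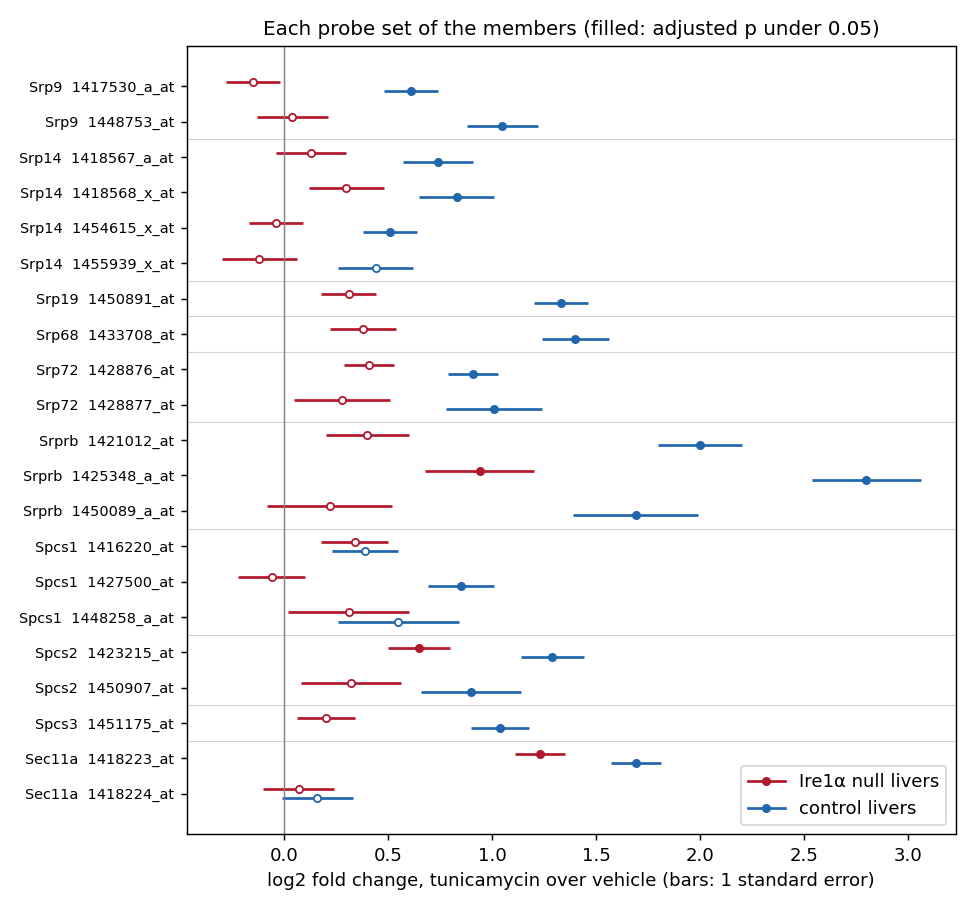
Each row is 1 of the 21 probe sets, and the x axis gives its log2 fold change, tunicamycin over vehicle, in null and control livers with bars of 1 standard error, filled where the adjusted p is under 0.05. In control livers 17 probe sets are filled and in null livers 3, and for Srp14 and Spcs1 the brightest probe set is not filled in either genotype.

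Other genes of the pathway were read from lists. Of 5 further SRP and signal peptidase genes, 3 were tested, and 2 rose in control livers, against 11.6% of all genes. These were Srpr, the α subunit of the SRP receptor (0.95 ± 0.12, adjusted p = 0.000146), and Sec11c, the second catalytic subunit of signal peptidase (0.90 ± 0.18, adjusted p = 0.00285). In null livers they changed by 0.13 (adjusted p = 0.511) and 0.10 (adjusted p = 0.744), and 0 of the 3 passed. With tunicamycin both were lower in null livers, against 3.23% of all genes, Srpr at -0.93 (adjusted p = 0.00113) and Sec11c at -1.27 (adjusted p = 0.00172). The 2 catalytic subunits thus gave unlike values in null livers, 1.23 for Sec11a and 0.10 for Sec11c. The difference between these 2 genes was not tested.

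Of 12 genes of the Sec61 translocon and the translocon-associated protein complex, 11 were tested. In null livers 1 rose and 1 fell with tunicamycin, against 7.59% and 9.23% of all genes. In control livers 7 rose and 1 fell, against 11.6% and 13.3% of all genes. Sec61a1, which encodes the channel itself, rose by 0.45 ± 0.14 in null livers (adjusted p = 0.0455) and by 1.51 ± 0.14 in control livers (adjusted p = 1.49e-05). Ssr3 and Ssr1, subunits of the associated complex, rose by 1.34 and 1.15 in control livers and changed by 0.37 and -0.16 in null livers. Tram2 fell in both genotypes, by 1.66 in null livers and by 1.86 in control livers. With tunicamycin 7 of the 11 were lower in null livers, against 3.23% of all genes. In the interaction 4 had a smaller response there (Sec61a1, Ssr3, Ssr1 and Tram1), against 0.824% of all genes.

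Of 11 genes of other targeting routes and signal peptide removal, 10 were tested. In null livers 0 passed, and in control livers 3 rose, against 11.6% of all genes: Bag6, a chaperone of tail-anchored proteins (0.62, adjusted p = 0.0118), Get4, its partner (0.73, adjusted p = 0.0156), and H13, the signal peptide peptidase (0.43, adjusted p = 0.0146). With tunicamycin H13 was lower in null livers (-0.63, adjusted p = 0.00699). The median change in control livers was 0.29 on this list, 0.66 on the translocon list and 1.17 for the 10 members.

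The genes whose pattern over the 12 arrays was most like a member's were found by the root mean square difference of log2 values, each gene centred on its own mean. Nearest to Srprb were Nhsl1 (0.23), 6430548M08Rik (0.25), Tmed3 (0.25), Nme6 (0.28) and Esyt1 (0.28). Their changes were 0.89 to 1.34 in null and 2.47 to 3.18 in control livers. Nearest to Sec11a were Osbp (0.12), Edem1 (0.14), Uggt1 (0.14), Mrps18b (0.15) and Ngdn (0.15), with changes of 1.18 to 1.35 in null and 1.55 to 2.00 in control livers. Nearest to Srp19 were Ssr3 (0.08), Clptm1l (0.09), Serp1 (0.12), Gorasp2 (0.13) and Nudcd1 (0.15), with changes of 0.16 to 0.56 in null and 1.10 to 1.39 in control livers. The lists of the 3 members shared no gene, and the smallest difference was that of Ssr3 from Srp19 (0.08). Neighbours were picked for small differences on these same arrays, so their like changes follow from the choice.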

How the data were processed

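Liver RNA was hybridised to 12 Affymetrix arrays, per the labels' protocols. The deposited values were 1 linear intensity per probe set and array. The summary algorithm behind each intensity is not stated in the labels, and the values were treated as not normalized between arrays. Without 64 control probe sets, 34945 had 1 gene symbol in the platform annotation and were used. A probe set that names Srprb and another gene was not. Values were taken as log2(intensity + 16) and quantile normalized, so fold changes understate those of low genes. Probe sets among the dimmest 30% were dropped, and the brightest probe set stood for each gene. limma 3.58.1 in R 4.3.3 (lmFit on the 4 group means, then eBayes; 8 residual degrees of freedom; version 1.17.8 of data.table for reading) tested 5 contrasts, with Benjamini-Hochberg adjusted p-values over 14568 genes.

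The members and lists were chosen with earlier results of these data known. All 10 members are named, with the called genes of the list of other SRP and signal peptidase genes, up to 4 called genes of the other lists, and the 5 nearest genes to Srprb, Sec11a and Srp19. Probe sets of Srp54 and Sec61g that matched several genes were not used. The number of arrays limits the precision. The fit was tested on simulated data with 100 genes changed by 1 and 100 by 2 (log2). It recovered 63.0% and 96.0% of them for tunicamycin in control livers, and 23.0% and 80.0% in the interaction. False calls among the unchanged genes numbered 9 and 3. An interaction near 1 was thus mostly missed in the simulation. Noise was drawn independently for each gene. The main fit called 3636 genes in control livers, far more than were changed in the simulation, so recovery in the data can differ. The settings varied were the pseudocount, the filter, the scaling, the choice of probe sets, the variance model, a replicate block, RNA quality covariates, the groups in the fit and each array in turn. Plots were made in Python 3.11.15 (matplotlib 3.10.9).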

Additional observations from a re-analysis of the deposited data

Results flagged for a closer look

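The response to tunicamycin differed between the genotypes for Srprb and Srp19 by the test of the interaction, null minus control, with -1.86 for Srprb (0.94 in null and 2.80 in control livers) and -1.01 for Srp19 (0.31 in null and 1.33 in control livers). Of 12 fits with 1 array left out, 11 ended the call of Srprb and 9 that of Srp19. A replicate block ended both, and with it 59 of all genes were called in the interaction, against 122 in the main fit. Srp9 (-1.01) and Srp68 (-1.02) had values like that of Srp19 without passing.

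For Srp14 every null tunicamycin array lay below the null vehicle mean and every control tunicamycin array above the control vehicle mean. The difference between these responses was -0.56 (-0.12 in null and 0.44 in control livers). As a difference in direction it was not tested, and the interaction term gave an adjusted p of 0.573 in limma. The null value turned positive with the mean of probe sets, without _x_at and _s_at probe sets, or with another scaling. On the other single probe sets it was 0.13, 0.30 and -0.04.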

How the results depend on the processing

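The number of members called among 10 was 8 for tunicamycin in control livers, with 8 to 10 over 25 alternatives and 8 to 9 with 1 array left out. For tunicamycin in null livers it was 4, with 1 to 6 over the alternatives. It was 6 with array medians centred or values as deposited (Srp19 and Srp68 added). It was 1 when the probe sets of a gene were averaged (Sec11a passed) and 2 when only the groups compared were fitted. With 1 array left out it was 2 to 4, the 2 arising without null vehicle replicate 1 or 3 or null tunicamycin replicate 2. Null against control livers gave 8 with tunicamycin (7 to 10, and 7 to 8 with 1 array left out) and 0 with vehicle (0 throughout). Of all genes, 1 was called with vehicle under a replicate block and 1 when only those groups were fitted. The interaction count of 2 was the least settled. It was 1 with a pseudocount of 1, 5 with a pseudocount of 64, 1 with no filter, 4 with a 50% filter, 5 with a trended and robust variance, 3 with array medians centred (Srp68 added), 2 with values as deposited (Srp68 in place of Srp19), 1 with the actin and 1 with the Gapdh covariate, and 0 to 4 with 1 array left out. Over all genes, in either direction, the interaction called 122 in the main fit and 14 to 126 with 1 array left out. It called 71 and 186 with a pseudocount of 1 and 64, 92 with no filter and 143 with a 50% filter. Array medians centred gave 128, values as deposited 82 and a trended, robust variance 152. The actin covariate gave 108 and the Gapdh covariate 126. Over the alternatives, all genes called numbered 1885 to 4071 in control livers (3636 in the main fit) and 1487 to 2628 in null livers (2449). For null against control livers with tunicamycin they numbered 279 to 714 (581). The cause was not tested.

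Labels number the replicates without saying that a number links groups. Deviations of same-numbered arrays correlated between -0.41 and 0.49 over 18 pairs, with 5 over 0.1. Arrays with different numbers were not correlated beside them, so these values do not decide whether a number pairs the arrays. The main fit treated the arrays as unpaired. With the replicate block the counts of members were 8, 3, 0, 8 and 0, in the order control response, null response, vehicle, tunicamycin and interaction. Of all genes, it called 3374, 2144, 1, 440 and 59 in that order, against 3636, 2449, 0, 581 and 122 in the main fit. Among the members, the block ended the calls of Srp72 in null livers and of Srp19 and Srprb in the interaction.

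Signs turned in 17 of the 1240 member values, none of them called. Srp9 in null livers became -0.05 with the mean of probe sets, -0.05 without null vehicle replicate 2 and -0.12 without null tunicamycin replicate 2, and ran between -0.12 and 0.18 with 1 array left out. Srp14 in null livers became 0.04 with medians centred, 0.11 as deposited, 0.07 with the mean of probe sets and 0.13 without _x_at and _s_at probe sets. With vehicle, Srp9 became 0.01 with the actin covariate, Srp14 -0.01 with the mean of probe sets and -0.15 without _x_at and _s_at probe sets, and Srp68 -0.01 as deposited, -0.02 with the Gapdh covariate and -0.01 without control vehicle replicate 1. The Spcs1 interaction became 0.04 with the actin covariate, 0.04 without control vehicle replicate 3, 0.02 when control tunicamycin replicate 1 was left out, 0.05 without null vehicle replicate 2, and ran between -0.16 and 0.05 with 1 array left out. The scaling moved the median of all genes in control livers between -0.11 (quantile), -0.01 (medians centred) and 0.01 (as deposited), and in null livers between -0.07, 0.01 and 0.08.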
